A study of Mus musculus with 8 samples.

Results

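The comparison set embryonic stem cells (ESCs) of the NS tet-off line with forced Nanog beside the same line with an empty vector. Both were kept without doxycycline (Dox), so that nucleostemin (NS) was expressed on both sides. It held 2 of the 8 arrays used here, 1 a side, and 18194 genes, each read through 1 probe set, the one of the gene's sets with the strongest mean signal. In every group both copies of the NS gene, Gnl3, were disrupted and an NS cDNA in the ROSA26 locus was driven by a tetracycline-off system, which Dox shuts off. The cells were male 129sv ESCs grown without feeders in serum and leukemia inhibitory factor (LIF). The conditions were Nanog-overexpressing, Esrrb-overexpressing, 2i-treated empty vector-bearing (inhibitors of MEK and GSK3b) and empty vector-bearing NS tet-off ESCs, each Dox-untreated or Dox-treated for 6 days. The Nanog vector was stably integrated under puromycin selection, and neither the promoter that drives it nor whether the line was 1 clone or a pool is given in the sources used here. The question was what forced Nanog alone did to ESCs that still made NS. With 1 array per condition there was no spread between replicates and no test, so differences of log2 signal are given as measured and over 2-fold means a difference above 1 or below -1.

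Nanog is a homeodomain transcription factor that, with Oct3/4 (Pou5f1) and Sox2, holds ESCs in the self-renewing state. Forced Nanog is known to let ESCs renew without LIF, and in earlier work Nanog activated genes such as Esrrb and Klf4 and held down genes of primitive endoderm and of the primed epiblast.

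The array did not show the forced gene. Nanog, read by a single probe set, had a log2 signal of 12.35 on the Nanog-labelled Dox-untreated array, against 12.81 on the empty vector array, a difference of -0.45. It was also lower on the Nanog-labelled array after 6 days of Dox, at 12.23 against 12.49, a difference of -0.26. Both Nanog-labelled arrays lay below all 6 other arrays, where Nanog read 12.49 to 13.23. What part of the transcript the vector carried is not given in the sources used here, so the probe set gives no check of the label, and every direction below is that of the array labelled Nanog-overexpressing. The Esrrb-labelled array was alike in this: Esrrb read 11.27 there in Dox-untreated cells and 11.31 with the empty vector. The region before the first listed start of Nanog is shown because this is the gene the label names as forced. It lies on the + strand at chr6:122707239-122707488 (GRCm38.p6, RefSeq), and capitals mark the motif TTTGCAT (or ATGCAAA on the other strand), part of the octamer that POU factors bind, and the homeodomain core TAAT (or ATTA).
Nanog: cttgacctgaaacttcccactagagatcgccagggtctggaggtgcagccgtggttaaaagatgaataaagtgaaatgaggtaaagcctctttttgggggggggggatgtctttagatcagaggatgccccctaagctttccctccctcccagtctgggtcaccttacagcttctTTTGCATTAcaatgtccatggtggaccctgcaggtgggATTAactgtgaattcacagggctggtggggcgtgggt
The window holds 1 TTTGCAT match, which overlaps a core match, and 2 core matches. A match of letters is no measure of binding.

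Expression of the ESC state was close to level between the arrays. Gnl3 read 13.68 in Nanog cells, against 13.47 in empty vector cells. Of 36 measured pluripotency genes, 0 were over 2-fold higher and 0 lower, where over all genes 0.434% were higher and 0.253% lower, and the median difference was -0.05. Pou5f1 read 13.15 on both arrays, Sox2 12.85 in Nanog cells and 12.78 in empty vector cells, and Zfp42, a marker of naive ESCs, 13.34 and 13.29 in the same order. The largest positive differences of the list were Manba, a lysosomal mannosidase, at 10.16 in Nanog cells and 9.31 in empty vector cells, and Prdm14, a regulator of the naive state, at 10.38 against 9.82. Tbx3, a T-box factor of the naive network, read 11.82 in Nanog cells and 11.30 in empty vector cells, and Klf4 13.24 and 12.90. At the other end Dppa3, a maternal and germ cell factor, read 5.42 in Nanog cells against 6.03 in empty vector cells. Esrrb differed by 0.22, within 0.5 as did 94.2% of all genes. Over all 8 arrays Pou5f1 read between 12.71 and 13.28.

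Most genes differed little. There were 79 genes over 2-fold higher in Nanog cells (0.434%) and 46 lower (0.253%), and 17132 genes (94.2%) differed by less than 0.5. Counted by the 34958 probe sets with a single gene symbol, 139 were over 2-fold higher and 98 lower. In 2i minus empty vector Dox-untreated cells, which share the empty vector array, 146 were higher and 73 lower. A difference of this extent was thus not particular to the Nanog array. The SD of the difference over all genes was 0.268 and the median 0.02. Among the 79 higher genes, the largest fold was 6.17 and the median 2.34, with 5 genes over 4-fold. Among the 46 lower genes the largest fold was 4.21 and the median 2.23, with 1 gene over 4-fold. Just inside the threshold lay Tnfsf11 at 1.006 and Apela at -1.0101, and just outside it Htra1 at 0.9998 and Gm13261 at -0.9988, all 4 named after their values were seen. The probe sets of a gene did not always read alike. Of the 39 higher genes with more than 1 probe set, all sets were over 2-fold in 9 and some had the opposite sign in 13, while of 24 such lower genes these counts were 5 and 6.

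**Figure D1:**
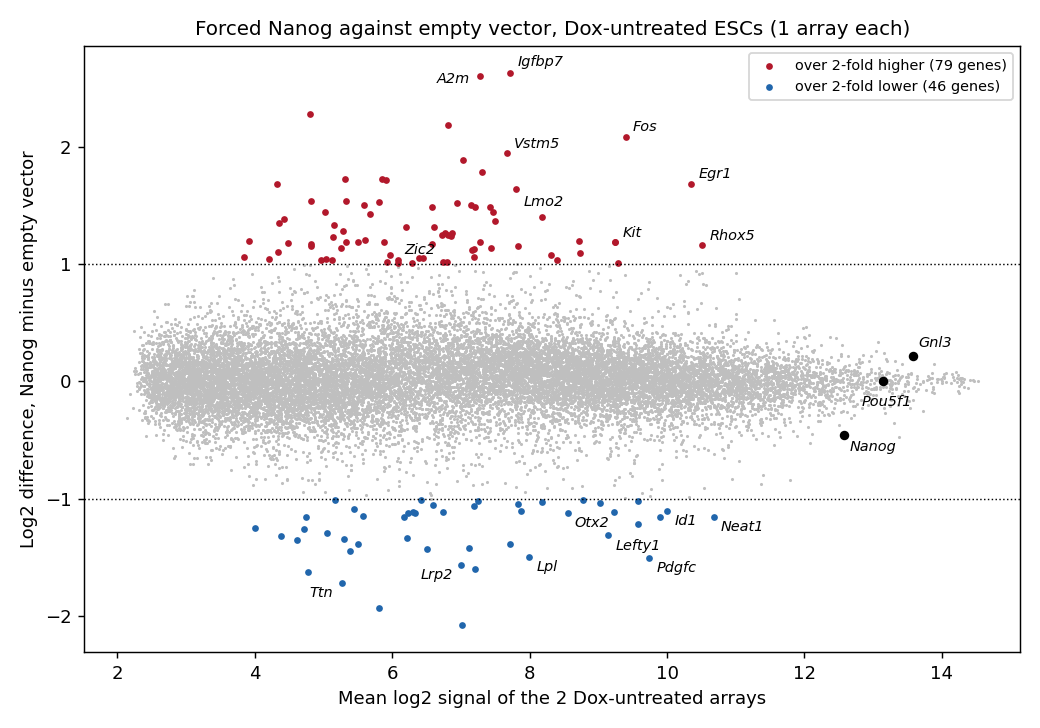
Difference of log2 signal, Nanog minus empty vector in Dox-untreated cells, against the mean log2 signal of the 2 arrays, with 1 point per gene. Red points are the 79 genes over 2-fold higher, blue points the 46 lower, dotted lines mark a difference of 1 and -1, and Nanog, Gnl3 and Pou5f1 are in black between the lines.

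The 2 genes with the largest positive difference code for secreted proteins. Igfbp7, a secreted binding protein of insulin-like growth factors, read 9.03 in Nanog cells, 8.07 in Esrrb cells, 6.92 in 2i cells and 6.40 in empty vector cells. The difference of 2.63 between Nanog and empty vector cells (6.17-fold) was the largest of all genes, although its 3 probe sets ran from 0.21 to 2.63. A2m, a secreted protease inhibitor, read 8.58 in Nanog cells, 9.40 in Esrrb cells, 7.10 in 2i cells and 5.97 in empty vector cells. Nanog cells were 2.60 above empty vector cells in A2m, with the Esrrb array higher still. Kit, the receptor of stem cell factor and a germ cell and progenitor marker, read 9.84 in Nanog cells and 8.65 in empty vector cells, and its 2 probe sets gave differences of 1.17 and 1.19. Kit was the only member over 2-fold (0.434% of all genes higher and 0.253% lower) among 14 genes raised by Nanog in earlier work, whose median difference was 0.16.

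Other genes of membrane proteins were higher as well. Gprc5b, an orphan G protein-coupled receptor, read 7.94 in Nanog cells and 6.46 in empty vector cells, and Tmem108, a transmembrane protein, 8.20 and 6.41. Ano1, a calcium-activated chloride channel, read 8.19 in Nanog cells, 6.80 in Esrrb cells, 6.31 in 2i cells and 6.75 in empty vector cells, so that the Nanog array stood alone. Vstm5, a membrane protein with an immunoglobulin-like domain, stood apart in the same way. It read 8.64 in Nanog cells, 6.96 in Esrrb cells, 6.72 in 2i cells and 6.70 in empty vector cells, a difference of 1.95 from empty vector. The window before its only listed start is printed because Vstm5 was farthest above the other 3 Dox-untreated arrays. It lies on the + strand at chr9:15238795-15239044 (GRCm38.p6, RefSeq), with the same letters in capitals.
Vstm5: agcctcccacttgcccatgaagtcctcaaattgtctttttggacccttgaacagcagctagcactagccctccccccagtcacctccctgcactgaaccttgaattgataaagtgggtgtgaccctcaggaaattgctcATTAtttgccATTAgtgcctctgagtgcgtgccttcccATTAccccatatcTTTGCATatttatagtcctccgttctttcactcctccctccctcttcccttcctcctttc
It holds 1 TTTGCAT match and 3 core matches. Of 56 genes over 2-fold higher with a RefSeq promoter of this length, 7.14% hold TTTGCAT and 33.9% the core, against 4.18% and 48.3% of the 14453 genes compared and 4.12% and 54.9% of 32851 promoters. These shares are a description of letters and say nothing of what binds.

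Genes of transcription factors were also over 2-fold higher. Fos and Egr1 are immediate early genes that Erk signalling induces within minutes in many cells. Fos read 10.44 in Nanog cells, 11.27 in Esrrb cells, 9.52 in 2i cells and 8.35 in empty vector cells. Egr1 read 11.20 in Nanog cells, 11.55 in Esrrb cells, 10.73 in 2i cells and 9.51 in empty vector cells. In both genes the empty vector array was the lowest of the 4 and the Esrrb array the highest. Of the 21 measured MEK and Erk feedback genes these 2 were over 2-fold higher (0.434% of all genes), 0 were lower (0.253%), and the median was 0.11. The differences of the list ran from -0.47 for Spry4 to 2.09 for Fos, and 12 of the 21 were positive, as were 9868 of all 18194 genes. Dusp4, a phosphatase that dampens Erk signalling, had a difference of 0.59 and Dusp6, another, -0.35, and Spry4 and Dusp6 were named after their values were seen. Lmo2, a LIM-domain partner in blood-forming transcription complexes, read 8.62 in Nanog cells, 6.78 in Esrrb cells, 7.03 in 2i cells and 6.99 in empty vector cells. Zic2, a zinc finger factor of neural and primed epiblast cells, read 7.48 in Nanog cells, 5.54 in Esrrb cells, 6.18 in 2i cells and 6.24 in empty vector cells. In Lmo2 and Zic2 the Nanog array alone was high. Rhox5, an X-linked homeobox gene of germ and placental lineages, read 11.10 in Nanog cells and 9.93 in empty vector cells.

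Other higher genes code for enzymes and for calcium-binding or cytoskeletal proteins. Crym, a cytosolic thyroid hormone-binding protein, read 7.97 in Nanog cells and 6.08 in empty vector cells. Gss, the glutathione synthetase, read 8.88 in Nanog cells and 7.47 in empty vector cells, and S100a1, a calcium-binding protein, 8.17 and 6.69. Gsn, which severs actin filaments, read 7.90 in Nanog cells and 6.40 in empty vector cells. S100a14, another calcium-binding protein, set the Nanog array apart, at 6.10 in Nanog cells, 4.48 in Esrrb cells, 4.49 in 2i cells and 4.57 in empty vector cells. The gene 2210409E12Rik read 7.90 in Nanog cells and 5.71 in empty vector cells. Spats2l, at 7.70 in Nanog cells and 6.18 in empty vector cells, had 4 probe sets between -0.08 and 1.52.

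Signalling ligands and an inhibitor were among the 46 lower genes. Pdgfc, a platelet-derived growth factor ligand, read 8.99 in Nanog cells, 9.25 in Esrrb cells, 10.28 in 2i cells and 10.49 in empty vector cells. Its 2 probe sets gave differences of -1.50 and -1.34. Lefty1, an extracellular inhibitor of Nodal, read 8.49 in Nanog cells, 8.86 in Esrrb cells, 9.76 in 2i cells and 9.80 in empty vector cells. The Nanog and Esrrb arrays were thus both below the 2i and empty vector arrays in Pdgfc and in Lefty1. Lefty2, its close relative, read 7.21 in Nanog cells and 8.07 in empty vector cells, short of 2-fold. Of 18 measured Nodal and Activin genes 1 was over 2-fold lower (0.253% of all genes) and 0 higher (0.434%), with a median of 0.05. Efnb2, a membrane-bound ephrin ligand, read 7.32 in Nanog cells and 8.43 in empty vector cells, though its 4 probe sets ran from -1.11 to 0.24.

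Id1 and Id2, inhibitors of basic helix-loop-helix factors that BMP signalling induces, were both lower. Id1 read 9.45 in Nanog cells and 10.55 in empty vector cells, and Id2 8.50 and 9.54 in the same order. The 3 probe sets of Id2 gave differences from -1.04 to -0.003. Id3, named after its value was seen, read 9.33 in Nanog cells and 9.13 in empty vector cells. In Id2 the Esrrb array stood lower than the Nanog array, at 7.40. Of 16 measured BMP and Id target genes Id1 and Id2 were over 2-fold lower and 0 higher, and the median was 0.08. Id2 was also the only one of 26 trophoblast genes over 2-fold. Among all genes 0.253% were over 2-fold lower and 0.434% higher.

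Among lower transcription factors, Otx2 set the Nanog array apart. Otx2, a homeodomain factor of the primed epiblast and forebrain, read 7.99 in Nanog cells, 9.41 in Esrrb cells, 9.12 in 2i cells and 9.11 in empty vector cells, a difference of -1.12 from empty vector. It was the only member over 2-fold (0.253% of all genes lower and 0.434% higher) of the 10 measured genes held down by Nanog in earlier work, whose median was 0.10. Nanog itself is counted among the 10, with a difference of -0.45. Others of that list were Smad7, an inhibitor of TGF-beta signalling, at 10.74 in Nanog cells and 9.88 in empty vector cells, and the endoderm factor Gata6 at 5.23 and 4.89. The window before the first of 4 listed starts of Otx2 is printed for comparison with Vstm5, and lies on the - strand at chr14:48667645-48667894 (GRCm38.p6, RefSeq).
Otx2: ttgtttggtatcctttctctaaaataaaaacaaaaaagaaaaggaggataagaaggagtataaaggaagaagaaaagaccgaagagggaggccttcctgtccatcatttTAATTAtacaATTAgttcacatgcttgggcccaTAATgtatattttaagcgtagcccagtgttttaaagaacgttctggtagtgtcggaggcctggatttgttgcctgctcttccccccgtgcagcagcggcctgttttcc
It has no TTTGCAT match in these letters and 4 core matches, 1 pair of which overlap. Of 27 genes over 2-fold lower with such a promoter, 11.1% hold TTTGCAT (3 genes) and 25.9% the core (7 genes), beside 4.18% and 48.3% of the 14453 genes compared, again a description of letters.

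Of other regulators, Nkx6-3, a homeobox gene, read 6.41 in Nanog cells and 8.01 in empty vector cells, and Myb, a factor of blood progenitors, 6.41 and 7.83. Runx1t1, a corepressor, read 6.18 in Nanog cells and 7.30 in empty vector cells, but its 6 probe sets gave differences from -1.11 to 0.20. Cdkn1c, a maternally expressed inhibitor of cyclin-dependent kinases, read 8.67 in Nanog cells and 9.78 in empty vector cells. It was the only one over 2-fold of 31 cell cycle genes and of 27 imprinted genes (0.253% of all genes lower and 0.434% higher). Neat1, the long RNA that builds paraspeckles, read 10.10 in Nanog cells and 11.26 in empty vector cells on one probe set, while the other gave a difference of 0.07. H3f3b, which codes for histone H3.3 and has near-identical copies, read 7.02 in Nanog cells and 8.41 in empty vector cells.

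Lpl, lipoprotein lipase, read 7.24 in Nanog cells, 8.44 in Esrrb cells, 9.01 in 2i cells and 8.74 in empty vector cells, and its 2 probe sets gave differences of -1.49 and -1.17. Lrp2, an endocytic receptor of visceral endoderm, read 6.22 in Nanog cells and 7.78 in empty vector cells, with probe sets from -1.56 to -0.15. It was the only one of 23 primitive endoderm genes over 2-fold (0.253% of all genes lower and 0.434% higher). Slc27a2, which activates long fatty acids, read 8.97 in Nanog cells and 10.18 in empty vector cells, and Nefl, the neurofilament light chain, 9.32 and 10.48. Ttn, titin of muscle, read 4.41 in Nanog cells, 7.44 in Esrrb cells, 7.34 in 2i cells and 6.12 in empty vector cells, with 6 probe sets from -1.72 to -0.02. The largest difference among lower genes was that of 4933402E13Rik, at 5.98 in Nanog cells and 8.05 in empty vector cells.

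**Figure D2:**
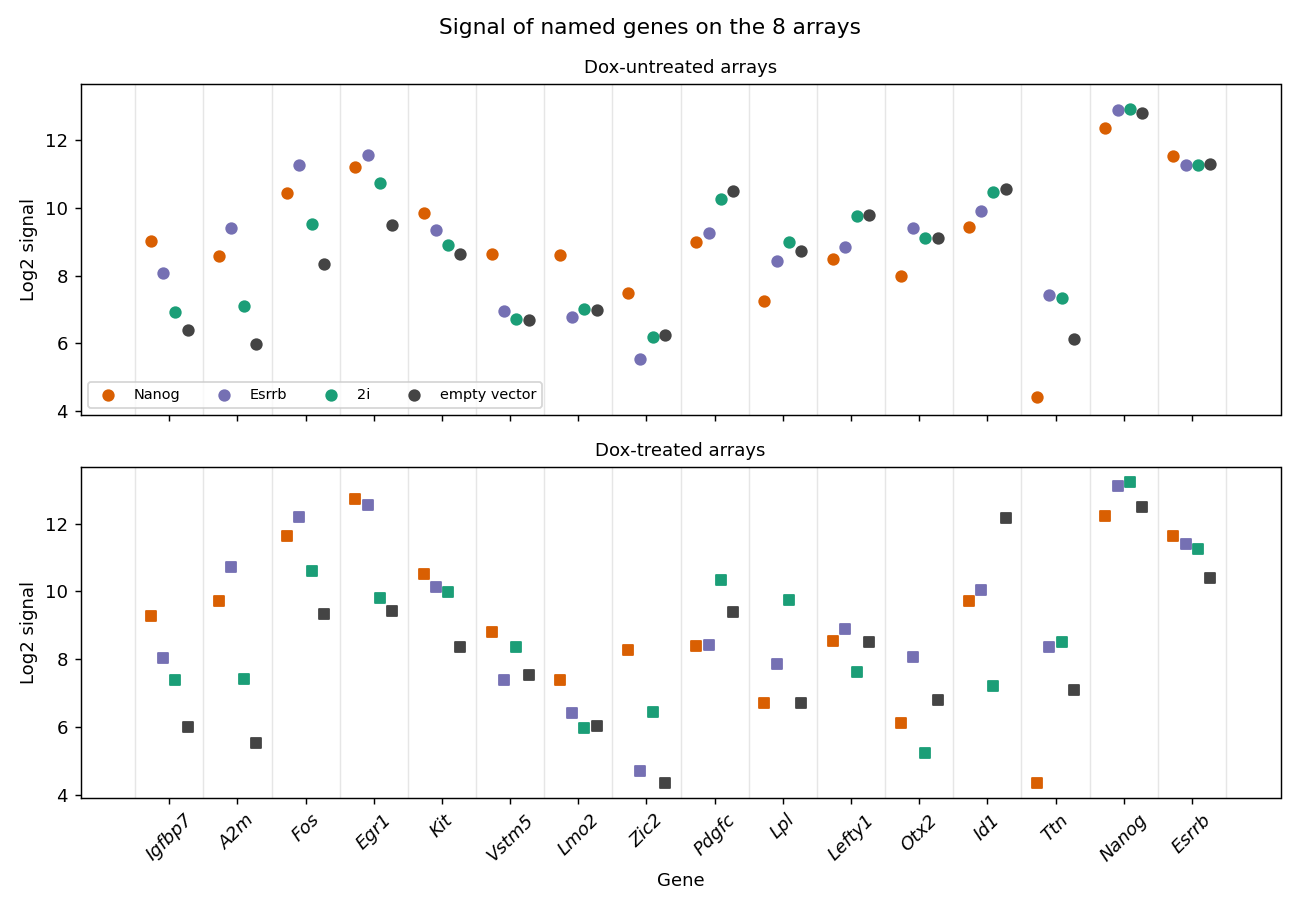
Log2 signal of 16 genes on the 8 arrays, Dox-untreated arrays above and Dox-treated arrays below, with 1 point per array and, within each gene, Nanog, Esrrb, 2i and empty vector from left to right. Vstm5, Lmo2 and Zic2 stand above the other 3 Dox-untreated arrays on the Nanog array and Lpl, Otx2 and Ttn below them, while A2m and Fos are highest on the Esrrb array.

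Gene lists moved little as wholes. There were 31 lists with 643 measured genes, of which 5 were over 2-fold higher and 6 lower, and 19 lists had no such member. Among all 18194 genes 79 (0.434%) were higher and 46 (0.253%) lower. At such shares a short list with 0 members over 2-fold says little. List medians ran from -0.18 to 0.20, beside 0.02 over all genes. The lowest was that of 22 primed epiblast genes, with Zic2 over 2-fold higher and Lefty1 and Otx2 lower. Fgf5, a primed epiblast ligand, was at 5.10 in Nanog cells and 4.34 in empty vector cells, but its 2 probe sets gave differences of -0.07 and 0.75. The highest was that of integrated stress response genes, 24 of 28 with a positive difference. Next came the genes raised by Nanog in earlier work at 0.16, 9 of 14. Glycolysis and hypoxia genes followed at 0.14, 23 of 28, where 9868 of all 18194 genes had a positive difference. In the stress response and the glycolysis and hypoxia lists 0 genes were over 2-fold. Of 27 germline genes, only Kit and Rhox5 passed the 2-fold line, both upward. Differences in the germline list were negative for 18 genes and positive for 9, with a median of -0.10. Among 21 LIF and Stat3 target genes only Fos passed the 2-fold line, also upward. 2-cell embryo, p53 target, interferon-stimulated, mesoderm and neurectoderm genes had 0 over 2-fold. Krt8 and Krt18, keratins of trophoblast and epithelium, read 9.34 and 8.27 in Nanog cells, against 8.40 and 7.48 in empty vector cells. The trophoblast list that holds them was evenly split, with 13 positive and 13 negative differences and a median of 0.02. Markers of fibroblasts had 0 of 17 over 2-fold and a median of 0.02, and housekeeping genes 0 of 15 and 0.03.

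**Figure D3:**
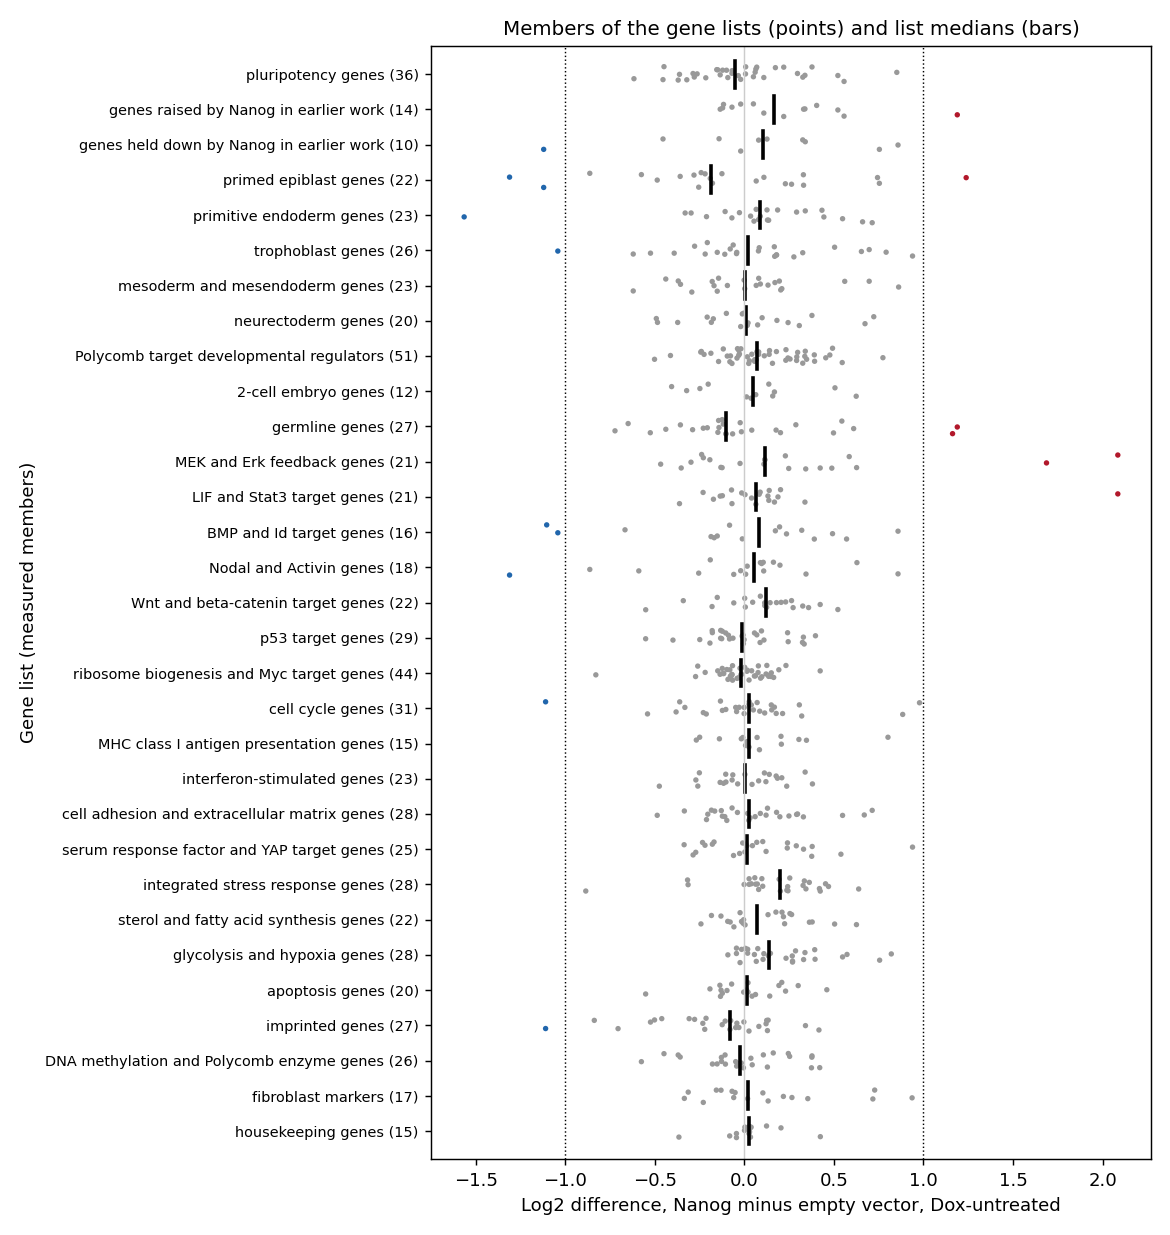
Difference of log2 signal, Nanog minus empty vector in Dox-untreated cells, of each measured member of the 31 gene lists (points) with the list median (bar) and the number measured in parentheses. Points past the dotted lines at 1 and -1 are red or blue, and all list medians lie between -0.18 and 0.20.

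Setting the genes beside the other Dox-untreated arrays showed where the empty vector array was the one apart. These comparisons use the arrays that chose the genes, so the counts beside their shares over all genes describe levels and nothing is read from the gap. Of the 79 higher genes, the Nanog array was the highest of the 4 in 63 (24% of all genes) and the empty vector array the lowest in 58 (27.7%). Only 13 were over 2-fold above all 3 others (0.0715%), and the Esrrb array was at or past the Nanog array in 15. Of the 46 lower genes, the Nanog array was lowest in 26 (19.6%), empty vector highest in 32 (22.1%), and 7 were over 2-fold below all 3 others (0.0385%). The Esrrb array was at or past the Nanog array in 19 of the 46. Among all 18194 genes the Nanog array was above the Esrrb array in 9092 and below it in 9093. The genes farthest above were Vstm5, Lmo2, S100a14, Ano1 and Zic2, and farthest below Ttn, Lpl, Otx2, Pkia and Plce1. Against the 2i array, Nanog cells had 124 genes over 2-fold higher (0.682%) and 132 lower (0.726%), and against the Esrrb array 68 (0.374%) and 161 (0.885%). The 2i label of the Dox-untreated array does not show in Dusp6, at 10.95 there and 10.97 on the empty vector array. It read 7.63 on the Dox-treated 2i array, and MEK inhibition is known to lower this gene. The difference between Esrrb and 2i Dox-untreated cells shares no array with the comparison. There 14 of the 79 genes were over 2-fold higher in Esrrb cells (1.02% of all genes) and 1 lower (0.654%), with a median of 0.35. Of the 46, 14 were lower and 2 higher, with a median of -0.60.

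The Dox-treated arrays gave a second reading of the line, with NS shut off and no array in common. Nanog cells differed from empty vector cells over 2-fold in 585 genes higher (3.22%) and 669 lower (3.68%). Of the 79 genes, 52 were higher there and 4 lower, with a median of 1.39. Of the 46, 17 were lower and 0 higher, with a median of -0.77. Against the Dox-treated Esrrb array, where 0.802% of genes were higher and 1.75% lower, 22 of the 79 were higher and 4 lower, and 14 of the 46 lower and 1 higher. Against the Dox-treated 2i array (2.72% of genes higher and 3.85% lower), 32 of the 79 were higher and 6 lower, and 16 of the 46 lower and 2 higher. In these pairs forced Nanog and the response to NS loss cannot be told apart. The Dox response of the 2i and Esrrb cells, Dox-treated minus Dox-untreated, also shares no array with the comparison. In 2i cells (4.81% of genes higher and 3.1% lower after Dox) 20 of the 79 were higher and 6 lower, and 6 of the 46 higher and 15 lower. In Esrrb cells (1.06% and 0.967%) 3 of the 79 were higher and 2 lower, and 0 of the 46 higher and 5 lower.

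Igfbp7 read 9.26 in Dox-treated Nanog cells, 8.04 in Esrrb cells, 7.39 in 2i cells and 5.99 in empty vector cells, so the Nanog array stayed the highest of the 4. A2m read 9.70 in Dox-treated Nanog cells, 10.73 in Esrrb cells, 7.42 in 2i cells and 5.53 in empty vector cells. Zic2 read 8.25 in Dox-treated Nanog cells, 4.70 in Esrrb cells, 6.44 in 2i cells and 4.35 in empty vector cells. Both Nanog arrays lay above the other 6 in 33 of the 79 higher genes and in 3.45% of all genes, but the 79 were chosen on 2 of these 8 arrays, so nothing is read from the gap. For Vstm5 the Dox-treated 2i array, at 8.35, came near the Nanog array at 8.81. Notch4, a Notch receptor also named after its values were seen, read 8.60 in Dox-treated Nanog cells and 4.79 in empty vector cells. Its 3 probe sets gave differences from -0.09 to 1.25 in Dox-untreated cells.

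Of the 46 lower genes, both Nanog arrays lay below the other 6 in 11 (2.87% of all genes), again with 2 of these 8 arrays used to choose the genes and nothing read from it. Ttn read 4.34 in Dox-treated Nanog cells, 8.37 in Esrrb cells, 8.50 in 2i cells and 7.09 in empty vector cells. Lrp2 read 4.08 in Dox-treated Nanog cells and 7.92 in empty vector cells, and Hs6st2, a heparan sulfate sulfotransferase, 4.14 and 8.03. In Dox-untreated cells the 4 probe sets of Hs6st2 gave differences from -1.93 to 0.21. Hs6st2 on the other Dox-treated arrays read 4.25 in Esrrb cells and 4.07 in 2i cells, so there the empty vector array was the one apart. Otx2 read 6.11 in Dox-treated Nanog cells, 8.05 in Esrrb cells, 5.22 in 2i cells and 6.79 in empty vector cells. Lpl read 6.71 in both Dox-treated Nanog and empty vector cells. Lefty1 read 8.53 in Dox-treated Nanog cells and 8.51 in empty vector cells, so both genes were level there. Id1 read 9.71 in Dox-treated Nanog cells, 10.04 in Esrrb cells, 7.21 in 2i cells and 12.18 in empty vector cells.

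**Figure D4:**
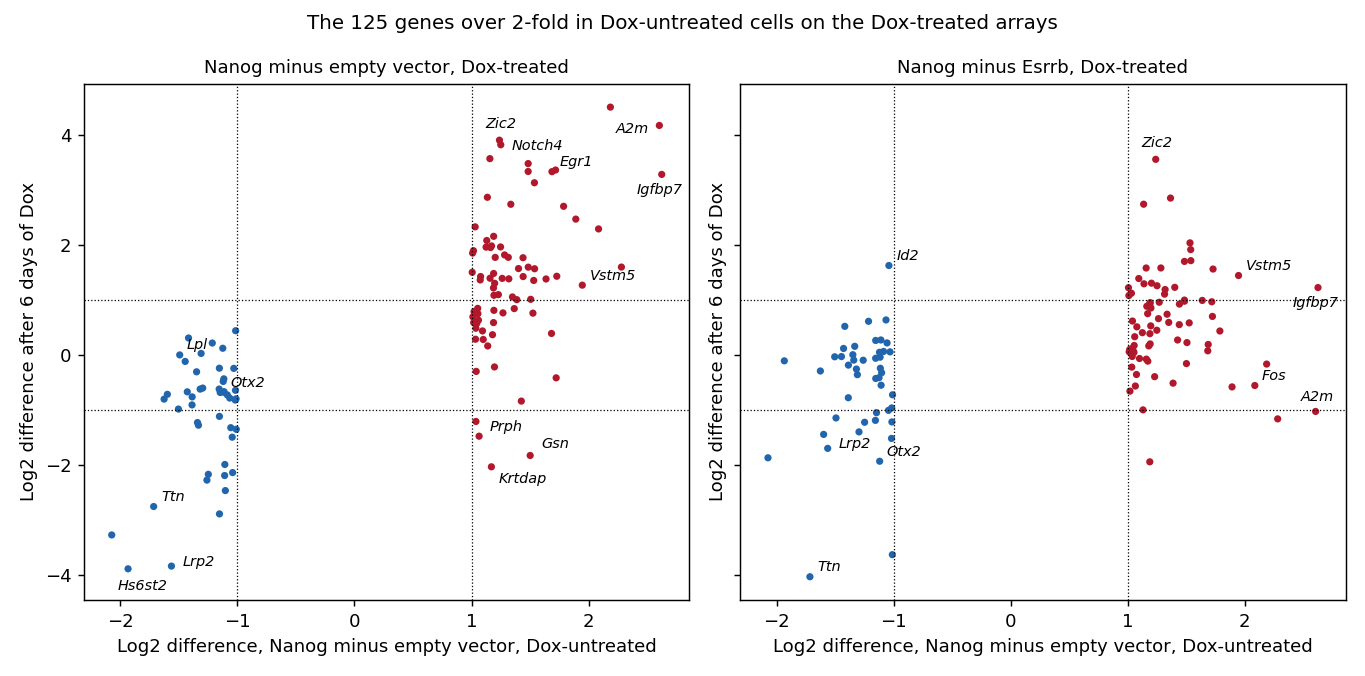
The 125 genes over 2-fold in Dox-untreated cells, with their difference Nanog minus empty vector there on the x axis, against 2 differences after 6 days of Dox on the y axis: Nanog minus empty vector at left and Nanog minus Esrrb at right, all in log2 signal. Red points are genes higher and blue points genes lower in Dox-untreated Nanog cells. Of the red points 52 lie above 1 at left and 22 at right, and of the blue points 17 lie below -1 at left and 14 at right.

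The 2 Dox-untreated arrays were alike in the control probe sets looked at, which do not cover every side of array quality. The 3' minus 5' difference of the Gapdh control probe sets was 0.05 in Nanog cells and 0.03 in empty vector cells, and that of Actb 0.69 and 0.67. The array medians, which quantile normalization brings close, were 5.31 in Nanog cells and 5.34 in empty vector cells. The median difference per chromosome ran from -0.0007 on chromosome 16 to 0.0408 on chromosome 11, so no whole chromosome stood apart.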

How the data were processed

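RNA of NS tet-off ESCs was measured on Affymetrix mouse arrays, 1 array for each of 8 conditions, assigned to groups from the labels. The deposited values are log2 signals that the authors made with RMA in the affy package, which subtracts background, quantile-normalizes and summarizes probe sets. The sources used here give no version. They were used unchanged, so a shift of all genes in one direction would not be seen. Of 45101 probe sets, 34958 carry a single gene symbol and were used, 932 carry several and 9211 none here. A gene with several probe sets was read from the one whose mean signal across the 8 arrays was highest. For arrays, their number limits the precision.

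A difference is Nanog minus empty vector, and over 2-fold means above 1 or below -1 on the log2 scale. No test was made. The members, gene lists and named genes were chosen with earlier results of these data known. Named genes are Nanog, Gnl3, those the study names, the 15 highest and 15 lowest differences among genes brighter than the median, at most 4 members per list by size of difference, the 5 farthest outside the other 3 Dox-untreated arrays in each direction and the 5 with the largest difference in both Dox states. Lists come from general knowledge and overlap. Promoters are the 250 bases before a start in the RefSeq table (GRCm38.p6). The counting was tested on simulated data. Alternatives were other thresholds, references, probe set rules, a filter on dim genes, another quantile normalization and centring. Python 3.11.15, numpy 2.4.6, pandas 2.3.3 and matplotlib 3.10.9 were used.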

Additional observations from a re-analysis of the deposited data

Results flagged for a closer look

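Of the 79 genes over 2-fold higher in Dox-untreated Nanog cells 4 were over 2-fold lower in Dox-treated Nanog cells, each against empty vector cells of the same Dox state, and are named for this. The share of all genes over 2-fold lower in Dox-treated Nanog cells was 3.68%, so a count of 4 (5.06%) is near the background. Gsn had a difference of 1.5 in Dox-untreated and -1.83 in Dox-treated cells, Krtdap 1.17 and -2.03, Prph 1.06 and -1.48, and Tdrd7 1.04 and -1.21. With 1 array per condition the change of direction was not tested. In each of the 4 genes the Dox-treated empty vector array was higher than the Dox-untreated one. Gsn, for example, read 9.96 in Dox-treated and 6.40 in Dox-untreated empty vector cells, against 8.13 and 7.90 in Nanog cells.

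Probe sets with no gene name in the annotation were outside the comparison of genes. Of 9160 of them, 57 were over 2-fold lower in Nanog cells (0.622%) and 11 higher (0.12%), while among the 34958 probe sets with 1 symbol 98 were lower and 139 higher. In Nanog minus Esrrb Dox-untreated cells the unnamed probe sets gave 9 lower and 9 higher, in Nanog minus 2i Dox-untreated cells 35 lower and 20 higher, and in 2i minus empty vector Dox-untreated cells 8 lower and 10 higher. The first and second of these share the Nanog array with the comparison and the last the empty vector array.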

How the results depend on the processing

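No replicate could be left out and no paired analysis was possible because each condition has 1 array. The 79 higher and 46 lower genes became 411 and 273 at 1.5-fold, 14 and 5 at 3-fold, and 124 and 132 with the 2i Dox-untreated array as the reference. With the Esrrb Dox-untreated array as the reference, chosen after seeing the data, there were 68 and 161. Under the remaining settings they ran from 53 to 87 higher and 32 to 54 lower. List members over 2-fold, 5 higher and 6 lower, became 35 and 17 at 1.5-fold, 2 and 0 at 3-fold, 10 and 15 against 2i and 12 and 20 against Esrrb. On the Dox-treated arrays the 52 higher and 17 lower against empty vector became 200 and 111 at 1.5-fold and 9 and 3 at 3-fold, and 9 lower with the mean of probe sets; the 22 and 14 against Esrrb became 112 and 82, and 0 and 2. The 13 above and 7 below the other 3 Dox-untreated arrays became 85 and 64 at 1.5-fold and 2 and 1 at 3-fold, with 3 below after centring, 4 without dim genes and 3 with the mean of probe sets.

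With the Esrrb array as the reference the sign turned for 2210409E12Rik (-0.92), A2m (-0.82), Cdkn1c (0.60), Egr1 (-0.36), Fos (-0.83), Gsn (-0.46), Hs6st2 (0.14), Id2 (1.10), Neat1 (0.16), Rhox5 (-0.16), Runx1t1 (0.34) and Slc27a2 (0.56). Of the 41 named genes over 2-fold, 23 were still over 2-fold the same way against 2i, 21 against the mean of the 3 other Dox-untreated arrays, 11 against Esrrb and 33 with the mean of probe sets; causes were not tested. Dim genes give compressed log2 differences.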
